A study of Mus musculus with 8 samples.

Results

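The 10 genes of cell division described here are Foxm1, Cdk1, Racgap1, Pbk and Hmgb2, which act or peak around G2 and mitosis (G2/M), Cdk2, Fen1, Tk1 and Uhrf1, which act around DNA replication (S phase), and Cdk6, a kinase of G1. They were taken by symbol from the probe annotation, 10 of the 5822 gene symbols that the annotation gives alone to a feature. Cultured cortical astrocytes from newborn mice, either wild type (WT) or null for connexin43 (Cx43 KO), were profiled on 8 DNA arrays of 2 colours, 4 per genotype. Each array held astrocyte RNA in channel 2 and, in channel 1, a common reference pooled from adult organs of both sexes (liver, kidney, heart, aorta, brain, stomach, lung, spleen and gonads). The strain is C57BL/6j in the label of WT 1 and in that of the pool on the same array, and the astrocyte label of the other arrays is cut short before the strain. The arrays of a genotype are numbered 1 to 4, and that number is also their lot batch, which leaves 1 WT and 1 Cx43 KO array in each of the 4 lot batches. The array used as Cx43 KO 3 is titled Cx43 without the word KO. The labels do not name separate animals or cultures for the arrays of a genotype, and the p-values therefore cover the spread between these samples, possibly a technical one.

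Passage through the cell cycle is driven by cyclin-dependent kinases. Cdk6 pairs with D-type cyclins in G1 and phosphorylates the retinoblastoma protein, which frees E2F factors to switch on genes of DNA replication. Cdk2 acts from late G1 through S phase, and Cdk1 drives entry into mitosis, when Foxm1 and the Myb-MuvB complex switch on a further set of genes. Astrocytes of the newborn cortex still divide and go on dividing in culture.

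Every value is a log2 ratio of astrocytes over the pool (base 2 assumed), centred on the median ratio of its array, so that 0 is the typical gene of that array and not absence. The pool holds spleen and gonads, organs with dividing cells, and each gene has its own level in it, so the ratios of different genes do not order their transcript levels. The direction was set by marker genes: 4 tested astrocyte markers had a median ratio of 1.42 and 6 genes of adult organs one of -3.40. Between 36.6% and 57.6% of the 9568 features carried a ratio on an array, and correlations between arrays over the 2596 genes and unnamed features with 8 values ran from 0.67 to 0.92. The annotation names 0 features for Gja1, the connexin43 gene, so the genotypes could not be checked by its transcript, which was not analysed here.

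All 10 genes had enough ratios to be tested. Of their 14 features 3 had no ratio on any array, 1 of Pbk and 2 of Cdk6, so each of these genes rested on 1 feature. Foxm1 had 2 usable features and the other genes 1 each. A ratio on all arrays was found for 7 genes, while Racgap1, Tk1 and Uhrf1 lacked one on Cx43 KO 2, an array on which 60.3% of features were empty. WT 2 and WT 3, with 63.4% and 62.5% empty, had a ratio for each of these genes.

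Promoter sequence is shown for Cdk1 and Hmgb2, Cdk2 and Cdk6, as examples of a G2/M, an S-phase and a G1 gene. The RefSeq promoter table, on GRCm38.p6, had entries for 8 of the 10 genes, without Foxm1 and Pbk. The stretches are the 150 bases before the annotated start of the transcript, 5′ to 3′ on the gene's strand, and lie at chr10:69352913-69353062 on the minus strand for Cdk1, chr8:57511693-57511842 on the plus strand for Hmgb2, chr10:128705052-128705201 on the minus strand for Cdk2 and chr5:3343743-3343892 on the plus strand for Cdk6. Capitals mark the words of 3 motifs on either strand. These are the CCAAT box bound by NF-Y (CCAAT, or ATTGG when reversed), the cell cycle homology region, CHR, read by the MuvB complexes (TTTGAA), and 4 forms of the E2F site (TTTGGCGC, TTTCCCGC, TTTCGCGC and TTTGCCGC). None of these words overlaps another in the 4 stretches.
Cdk1: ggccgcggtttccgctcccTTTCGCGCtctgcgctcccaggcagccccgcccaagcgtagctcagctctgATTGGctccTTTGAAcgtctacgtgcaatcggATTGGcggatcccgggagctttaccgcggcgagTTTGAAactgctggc
Hmgb2: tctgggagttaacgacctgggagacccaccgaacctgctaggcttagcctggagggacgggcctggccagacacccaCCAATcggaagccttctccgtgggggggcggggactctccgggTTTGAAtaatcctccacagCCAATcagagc
Cdk2: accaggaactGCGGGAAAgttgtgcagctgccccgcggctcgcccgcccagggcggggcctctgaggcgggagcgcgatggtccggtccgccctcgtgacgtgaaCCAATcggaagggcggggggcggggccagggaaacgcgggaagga
Cdk6: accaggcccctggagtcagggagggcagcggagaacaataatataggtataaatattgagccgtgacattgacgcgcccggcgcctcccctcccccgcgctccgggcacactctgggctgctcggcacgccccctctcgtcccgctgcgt

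In the full 250 bases before the start, Cdk1 held words of all 3 motifs, with CHR words beginning 71 and 15 bases before the start. Hmgb2 held 4 CCAAT words and 2 CHR words, and Cdk2 held 1 CCAAT and 1 E2F word. Racgap1 held 1 CCAAT word. Of the 2 promoters listed for Uhrf1, 1 held an E2F word and both a CCAAT word. For Fen1 a single CHR word lay in 1 of 2 promoters, and in Cdk6 and Tk1 none of these letters occurred in this window. Over all 32851 promoters of the table, 33.8% held a CCAAT word, 16.0% a CHR word and 1.86% an E2F word in the same window. A word is a description of the sequence and not a measured site.

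The comparison of Cx43 KO with WT asks how transcript levels differ in the absence of connexin43. The 9 S-phase and G2/M genes were all lower on average in Cx43 KO, by -0.44 to -1.43 on the log2 scale, and Cdk6 was higher by 0.44. None of the 10 passed limma's test at an adjusted p of 0.05, as none of the 3505 genes and unnamed features tested did (0.0%). At an unadjusted p of 0.05 the test gave 6 of the 10 genes, all lower, against 128 lower of the 3505 (3.65%) and 263 in either direction (7.5%). A difference below 0 was found for 47.4% of all tested, whose median was 0.017, and the median of the 10 genes was -0.54. In the 7 genes with 8 values, 2 had every Cx43 KO array below every WT array, against 2.47% of all genes with 8 values, and 4 were lower in all 4 lot batches, against 8.82%. The 10 genes were chosen with earlier results of these data known, so these shares are a description and not a test. In these bulk cultures fewer dividing cells and less of a transcript per dividing cell cannot be told apart.

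**Figure D1:**
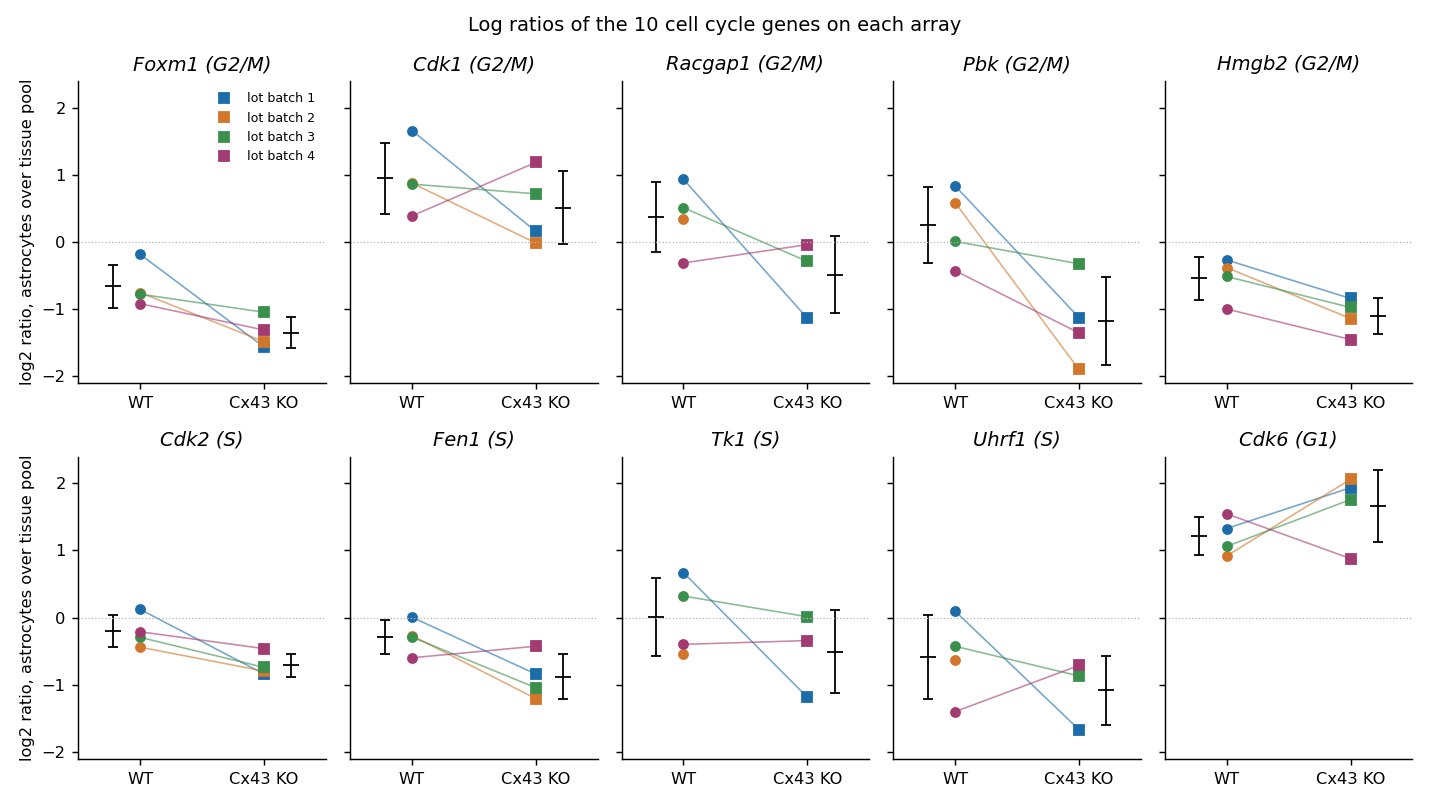
Log2 ratio over the tissue pool (y axis) of each gene on each array, WT as circles and Cx43 KO as squares, with a line joining the 2 arrays of a lot batch; black bars are the mean and SD of a genotype (n = 4, or 3 for Racgap1, Tk1 and Uhrf1 in Cx43 KO). WT 1, the blue circle, is the highest array for all 9 S-phase and G2/M genes, while Cdk6 is lowest on Cx43 KO 4.

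Foxm1, the transcription factor that switches on G2/M genes, had ratios of -0.19, -0.76, -0.78 and -0.92 for WT 1 to 4 and of -1.57, -1.49, -1.05 and -1.31 for Cx43 KO 1 to 4. All Cx43 KO arrays lay below all WT arrays, and the gene was below the median ratio of the array on all 8. The means were -0.66 ± 0.32 (SD, n = 4) and -1.36 ± 0.23 (SD, n = 4), a difference of -0.69 (SE 0.21, 95% interval -1.15 to -0.23, limma adjusted p = 0.578). The feature measured on all arrays gave a difference of -0.66 and showed the same separation. The second feature, measured on 3 arrays of each genotype, gave -0.74, and there Cx43 KO 3 at -0.93 lay above WT 4 at -1.08.

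Pbk, a mitotic protein kinase of neural progenitors and other dividing cells, had the greatest difference of the 10. Its ratios were 0.83, 0.59, 0.0065 and -0.43 for WT 1 to 4 and -1.13, -1.90, -0.33 and -1.36 for Cx43 KO 1 to 4. No WT array was as low as Cx43 KO 1, 2 and 4, but Cx43 KO 3 lay above WT 4. The means of 0.25 ± 0.57 (SD, n = 4) and -1.18 ± 0.65 (SD, n = 4) differed by -1.43 (SE 0.36, limma adjusted p = 0.471), a ratio 2.69-fold higher in WT. By unadjusted p it ranked 14 among the 3505, and by size it ranked 7 among those lower in Cx43 KO.

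Racgap1, a GTPase-activating protein of the central spindle that is needed for cytokinesis, had ratios of 0.93, 0.34, 0.51 and -0.31 for WT 1 to 4. On Cx43 KO 1, 3 and 4 they were -1.14, -0.29 and -0.04. The 2 genotypes overlapped, because WT 4 lay within the Cx43 KO range. The means were 0.37 ± 0.52 (SD, n = 4) and -0.49 ± 0.57 (SD, n = 3), a difference of -0.86 (SE 0.34, limma adjusted p = 0.655) fitted without Cx43 KO 2.

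Hmgb2, a chromatin protein that bends DNA and is abundant in dividing cells, was below the median ratio of the array on all 8 arrays. The ratios were -0.27, -0.38, -0.52 and -1.0 for WT 1 to 4 and -0.84, -1.14, -0.98 and -1.45 for Cx43 KO 1 to 4. WT 4 lay lower than Cx43 KO 1 and 3, so the genotypes overlapped, but within each lot batch the Cx43 KO array was lower, by -0.57, -0.76, -0.46 and -0.45. These were the most even lot differences of the 10 genes. The overall difference was -0.56 (SE 0.21, limma adjusted p = 0.655).

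Cdk1, the kinase of mitotic entry, had the smallest difference of the G2/M genes. It lay at 1.66, 0.88, 0.86 and 0.39 for WT 1 to 4 and at 0.16, -0.016, 0.72 and 1.18 for Cx43 KO 1 to 4. The ranges of the genotypes overlapped widely, and Cx43 KO 4 was the second highest of all 8 arrays. The means of 0.94 ± 0.53 (SD, n = 4) and 0.51 ± 0.55 (SD, n = 4) differed by -0.44 (SE 0.32, 95% interval -1.15 to 0.28, limma adjusted p = 0.778). Leaving out lot batch 1 brought the difference to -0.08, and leaving out WT 1 alone to -0.20. Without lot batch 4 it was -0.85.

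Among the S-phase genes, Cdk2 had every Cx43 KO array below every WT array. This kinase of the G1 to S transition lay at 0.12, -0.44, -0.30 and -0.21 for WT 1 to 4 and at -0.84, -0.80, -0.74 and -0.46 for Cx43 KO 1 to 4. The separation was narrow, since Cx43 KO 4 was only just below WT 2. The difference was -0.50 (SE 0.18, 95% interval -0.90 to -0.10, limma adjusted p = 0.655), and -0.35 without lot batch 1.

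Fen1, the flap endonuclease that trims Okazaki fragments during lagging-strand synthesis, lay at 0.0048, -0.27, -0.29 and -0.60 for WT 1 to 4 and at -0.84, -1.21, -1.05 and -0.43 for Cx43 KO 1 to 4. Cx43 KO 1 to 3 lay below every WT array, and Cx43 KO 4 lay above WT 4. The difference was -0.59 (SE 0.21, 95% interval -1.06 to -0.12, limma adjusted p = 0.655), and -0.74 without Cx43 KO 4.

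The other two S-phase genes were spread more widely within a genotype and lacked a ratio on Cx43 KO 2. Tk1, the cytosolic thymidine kinase of the nucleotide salvage pathway, lay at 0.67, -0.55, 0.32 and -0.40 for WT 1 to 4 and at -1.19, 0.012 and -0.34 on Cx43 KO 1, 3 and 4. Uhrf1, which brings the maintenance DNA methyltransferase to newly copied DNA, lay at 0.10, -0.63, -0.43 and -1.40 for WT 1 to 4 and at -1.67, -0.87 and -0.71 on Cx43 KO 1, 3 and 4. For both genes the genotypes overlapped. The difference was -0.52 for Tk1 (SE 0.37, limma adjusted p = 0.778) and -0.49 for Uhrf1 (SE 0.36, limma adjusted p = 0.778), with 95% intervals from -1.35 to 0.31 and from -1.31 to 0.32. Leaving out WT 1 brought them to -0.30 and -0.26, and leaving out WT 4 brought Uhrf1 to -0.76.

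Cdk6 was above the median ratio of the array on all 8 arrays, at 1.33, 0.92, 1.06 and 1.55 for WT 1 to 4 and at 1.93, 2.06, 1.76 and 0.88 for Cx43 KO 1 to 4. Cx43 KO 1 to 3 were the 3 highest arrays of all and Cx43 KO 4 was the lowest. The means were 1.21 ± 0.28 (SD, n = 4) and 1.66 ± 0.53 (SD, n = 4), a difference of 0.44 (SE 0.27, 95% interval -0.15 to 1.04, limma adjusted p = 0.753). It was 0.70 without Cx43 KO 4 (limma adjusted p = 0.239, and 0.118 to 0.995 over all alternatives), 0.82 without lot batch 4 and 0.21 without lot batch 2.

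**Figure D2:**
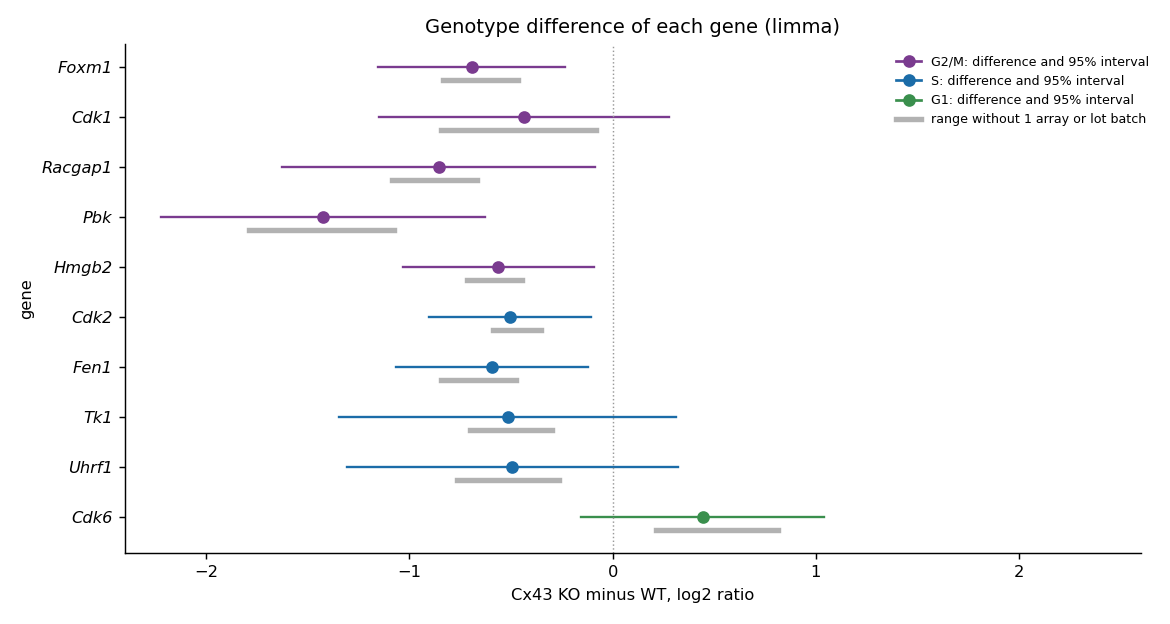
Cx43 KO minus WT difference of each gene on the log2 scale (x axis), as points with limma's 95% interval, coloured by phase; grey bars span the differences found when 1 array or 1 lot batch was left out. The intervals of Foxm1, Racgap1, Pbk, Hmgb2, Cdk2 and Fen1 lie below 0 before adjustment over all genes, those of Cdk1, Tk1, Uhrf1 and Cdk6 include 0, and no grey bar reaches 0. The bars of Racgap1, Tk1 and Uhrf1 span only 6 settings, those of the other genes 12. Without Cx43 KO 1, 3 or 4, or lot batch 1, 3 or 4, these genes had too few values, so their direction there is not shown.

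The arrays of 1 genotype differed from each other along these genes. WT 1 was the highest of all arrays for 9 of the 9 S-phase and G2/M genes, and WT 4 was the lowest WT array for 7 of them. Cx43 KO 1 was the lowest array for 5 and Cx43 KO 2 for 3 of the 6 it measured. Among the Cx43 KO arrays, Cx43 KO 4 was the highest for 5 genes (Cdk1, Racgap1, Cdk2, Fen1 and Uhrf1) but the lowest of all 8 arrays for Hmgb2.

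Within lot batches, the Cx43 KO array was lower than its WT partner for 9 of 9 S-phase and G2/M genes in lot batch 1, 6 of 6 in lot batch 2 and 9 of 9 in lot batch 3, but for 4 of 9 in lot batch 4. The median lot difference of these genes was -1.50, -0.83, -0.44 and 0.056 in lot batches 1 to 4. Foxm1, Pbk, Hmgb2 and Cdk2 were the genes that were also lower in lot batch 4, by -0.39, -0.93, -0.45 and -0.25. Each lot batch has 1 array per genotype, so its differences have no replicate.

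Markers of other cells also differed between the arrays. Of 20 microglia and macrophage markers 12 were on the array, 6 were tested and 5 had 8 values, with a mean between 0.67 and 1.28 on the WT arrays, of 0.29, 0.45 and 1.15 on Cx43 KO 1 to 3 and of 2.20 on Cx43 KO 4. Ctss, Fcer1g, Ptprc and Mpeg1 had no ratio on any array. Of 17 fibroblast, meningeal and mural markers 7 were on the array and 5 had 8 values, with a mean between 0.56 and 1.78 in WT, of -0.64, -0.44 and 0.97 on Cx43 KO 1 to 3 and of 2.85 on Cx43 KO 4. The 3 astrocyte markers with 8 values had a mean between 1.86 and 2.20 in WT, between 1.75 and 2.02 on Cx43 KO 1 to 3 and of 0.46 on Cx43 KO 4, and Slc1a2 had no ratio. Of 17 astrocyte markers 6 were on the array, and all 4 tested had a difference below 0. Their median was -0.56, beside -0.54 for the 10 genes, with Fabp7 at -0.72 (SE 0.27, limma adjusted p = 0.655). All 4 were lowest on Cx43 KO 4, where Id4, Ttyh1 and Aldoc lay at -0.52, -0.59 and -1.07. On Cx43 KO 1 and 3 they lay at 3.05 and 1.58 (Id4), 1.25 and 1.65 (Ttyh1) and 0.38 and 0.64 (Aldoc). Fabp7 lay at 3.63, 4.45, 3.78 and 3.06 on Cx43 KO 1 to 4, against 4.19 to 4.61 in WT. It was thus below every WT array on Cx43 KO 1 and 3 as well. Of the 10 genes, only Hmgb2 and Cdk6 were lowest on Cx43 KO 4. Of 9 oligodendrocyte lineage markers 4 were on the array and 2 were tested, Cnp at -0.27 (SE 0.34) and Pdgfra, a receptor of oligodendrocyte precursors, at -2.27 (SE 0.63, limma adjusted p = 0.578). Pdgfra lay at 1.84, 0.05 and 1.96 on WT 1, 2 and 4 and at -1.69, -1.50 and 0.24 on Cx43 KO 1, 3 and 4, a difference greater than that of any of the 10 genes. Of 10 neuron markers 3 were tested, with a median difference of 0.09, and of 7 endothelial markers 1, Cdh5 at -0.62 (SE 0.57). Cx43 KO 1 and 2 were thus below every WT array in the microglial and fibroblast means, where Cx43 KO 4 was the highest of the 8. Among the fibroblast markers Col3a1 had the widest spread, at -3.98 and -1.94 on Cx43 KO 1 and 2 and 3.67 on Cx43 KO 4. Col1a1 lay at 1.07 on Cx43 KO 1, within its WT range of 0.94 to 1.90. The other fibroblast markers with 8 values were below every WT array on Cx43 KO 1 and 2. Not every microglial marker followed the mean. Tyrobp, Cd68 and Itgam were below every WT array on Cx43 KO 1 and 2. Lgmn lay at 1.58 on Cx43 KO 1 and 0.68 on Cx43 KO 4, against 0.51 to 0.85 in WT. Rac2 lay at 0.15 and 0.27 on Cx43 KO 1 and 2, against -0.34 to 0.25 in WT, but at 3.04 on Cx43 KO 4 it followed the mean there. The part of these markers in the cell cycle differences was not tested. Without Cx43 KO 4 the differences were -0.71 for Foxm1, -1.37 for Pbk, -0.45 for Hmgb2, -0.66 for Cdk1 and -0.59 for Cdk2, and limma adjusted p was 0.218 or more for the 7 of the 10 genes that could still be tested.

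S-phase genes were set against G2/M genes by their mean on each array, over the genes with 8 values. The S-phase mean (Cdk2 and Fen1) was 0.06, -0.36, -0.29 and -0.41 for WT 1 to 4 and -0.84, -1.0, -0.89 and -0.45 for Cx43 KO 1 to 4. Every Cx43 KO array was thus below every WT array, by little for Cx43 KO 4. The G2/M mean (Foxm1, Cdk1, Pbk and Hmgb2) was 0.51, 0.08, -0.11 and -0.49 for WT 1 to 4 and -0.85, -1.14, -0.41 and -0.74 for Cx43 KO 1 to 4. Here Cx43 KO 3 lay above WT 4, so the genotypes overlapped.

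The genotype difference was -0.55 for the S-phase mean and -0.78 for the G2/M mean. Of the G2/M genes in that mean, Pbk differed most, by -1.43, against -0.69, -0.44 and -0.56 for Foxm1, Cdk1 and Hmgb2. Cdk2 and Fen1 differed by -0.50 and -0.59, so Cdk1 and Hmgb2 were lower by no more than Fen1. The lower G2/M mean thus rested largely on Pbk, and a mean without it was not computed. By lot batch the differences were -0.90, -0.65, -0.60 and -0.04 for the S-phase mean and -1.36, -1.22, -0.30 and -0.24 for the G2/M mean. The S-phase minus G2/M gap averaged -0.25 ± 0.25 (SD, n = 4) over the WT arrays and -0.014 ± 0.33 (SD, n = 4) over the Cx43 KO arrays. It was 0.23 higher in Cx43 KO, and in lot batch 3 it went the other way, at -0.30, against 0.45, 0.57 and 0.21 in lot batches 1, 2 and 4. The shift of the gap was 0.39 without Cx43 KO 3 and 0.41 without lot batch 3, but 0.13 without Cx43 KO 4 and 0.12 without lot batch 2. With all 4 S-phase and all 5 G2/M genes, over the 7 arrays other than Cx43 KO 2, the genotype differences were -0.49 and -0.70. No test was made of these means, since the genes were chosen with earlier results known.

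**Figure D3:**
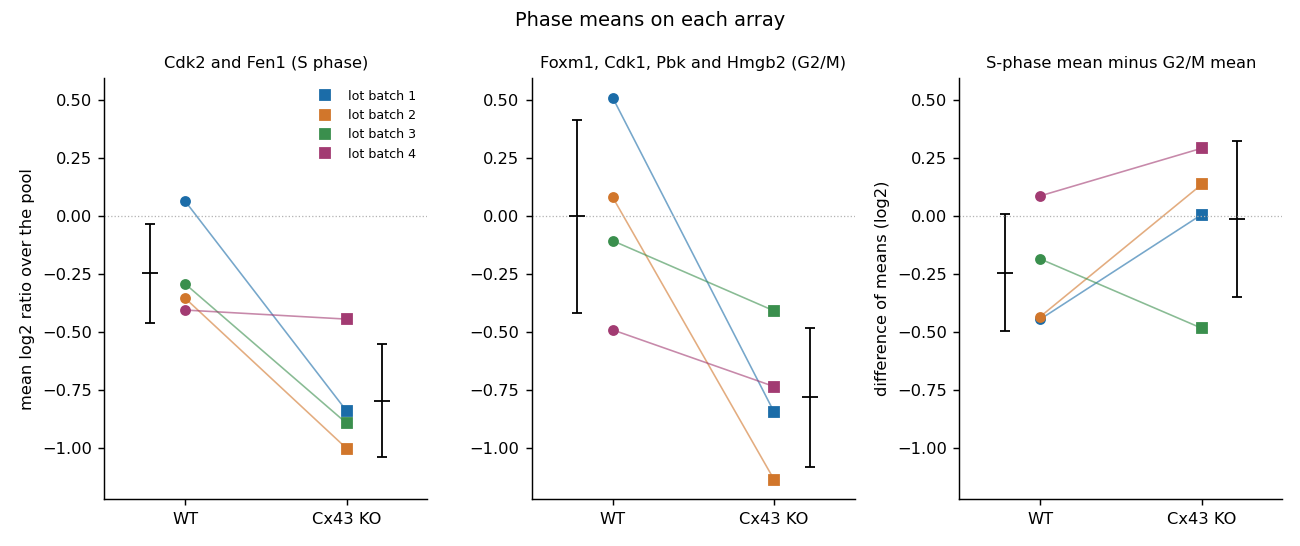
Mean log2 ratio (y axis) of the S-phase genes Cdk2 and Fen1, of the G2/M genes Foxm1, Cdk1, Pbk and Hmgb2, and the gap between the 2 means, on each array, joined by lot batch, with the mean and SD of each genotype in black (n = 4). The S-phase and G2/M means are lower in Cx43 KO in all 4 lot batches, by only -0.04 for the S-phase mean in lot batch 4, and the gap overlaps between the genotypes.

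Cdk6 was compared with the later kinases by the difference of their log2 ratios on each array. Cdk6 minus Cdk2 was 1.21, 1.36, 1.36 and 1.76 for WT 1 to 4 and 2.78, 2.86, 2.50 and 1.34 for Cx43 KO 1 to 4. Cx43 KO 1 to 3 lay above every WT array and Cx43 KO 4 lay within the WT range. The genotype means were 1.42 ± 0.24 (SD, n = 4) and 2.37 ± 0.70 (SD, n = 4), a shift of 0.95.

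Cdk6 minus Cdk1 was -0.33, 0.04, 0.20 and 1.16 for WT 1 to 4 and 1.78, 2.08, 1.04 and -0.30 for Cx43 KO 1 to 4. The genotypes overlapped, with Cx43 KO 4 near the lowest WT array. The means were 0.27 ± 0.64 (SD, n = 4) and 1.15 ± 1.06 (SD, n = 4), a shift of 0.88 that was smaller than the SD of Cx43 KO. Within lot batches 1 to 3 the Cdk6 minus Cdk1 shift was 2.11, 2.03 and 0.84, and in lot batch 4 it was -1.46. For Cdk6 minus Cdk2 the shifts were 1.57, 1.50, 1.14 and -0.42. Without Cx43 KO 4 the shifts over all arrays were 1.36 for Cdk1 and 1.29 for Cdk2.

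**Figure D4:**
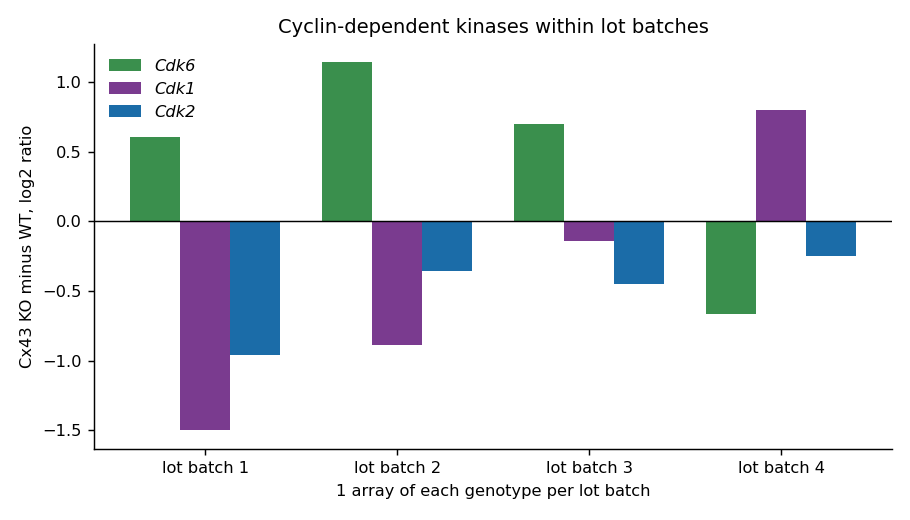
Difference between the Cx43 KO and the WT array of a lot batch (y axis, log2) for Cdk6, Cdk1 and Cdk2, 1 bar per gene and lot batch and no replicate within a bar. In lot batches 1 to 3 Cdk6 is higher and both other kinases are lower in Cx43 KO, while in lot batch 4 Cdk6 is lower by -0.67 and Cdk1 higher by 0.80.

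As a description, the 6 S-phase and G2/M genes with 8 values correlated with each other over the 8 arrays at r = 0.41 (Cdk1 with Hmgb2) to 0.92 (Foxm1 with Pbk), with a median of 0.77 over 15 pairs. Cdk6 correlated with them at r = -0.81 (Fen1) to -0.25 (Hmgb2). These arrays share the reference pool and the genotype difference enters each r. Of 2156 other named genes with 8 values, Kif4, a chromokinesin of the mitotic spindle, was most like the mean of these 6 genes over the arrays (r = 0.95), followed by Hirip3 (r = 0.95) and the zinc finger gene Zfp12 (r = 0.94). Gas8 (r = 0.97), the atypical protein kinase C gene Prkci (r = 0.97) and Tmem250-ps (r = 0.96) were most like Cdk6.

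Other genes of the cell cycle were followed in 9 lists by role. Of 196 listed genes 88 were on the array and 43 could be tested, 29 being lower and 14 higher in Cx43 KO, where 47.4% of all tested were lower. The median was -0.24, against 0.017 over all tested, and limma called 0 of the 43 (0.0% of all tested). At an unadjusted p of 0.05 there were 6 lower and 1 higher of the 43, against 3.65% lower and 7.5% in either direction over all tested. The lists were also chosen with earlier results known, so these shares too are only a description. Among the 29 with 8 values, Cdca3, Ncaph and Cdkn2c had every Cx43 KO array below every WT array, against 2.47% of all genes with 8 values. For Cdkn2c this was close to a tie, with Cx43 KO 2 at -0.34395 and WT 4 at -0.34333.

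Spindle, kinetochore and cytokinesis genes were 6 lower and 2 higher of 8 tested, with a median of -0.33. Cdca3, a trigger of mitotic entry that acts through degradation of Wee1, lay at -0.25, -0.26, -0.39 and -0.56 for WT 1 to 4 and at -0.76, -1.07, -1.06 and -0.98 for Cx43 KO 1 to 4. Its difference was -0.60 (SE 0.16, limma adjusted p = 0.471). Kif4 lay at 1.21, 0.61, 0.45 and -0.0049 for WT 1 to 4 and at -0.56, -0.37, 0.25 and -0.12 for Cx43 KO 1 to 4, a difference of -0.77 (SE 0.27, limma adjusted p = 0.655) in which Cx43 KO 3 overlapped WT 4.

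Of 3 chromosome condensation genes 2 were lower. The condensin subunit Ncaph differed by -0.64 (SE 0.20, limma adjusted p = 0.593), from -0.32 ± 0.36 (SD, n = 4) to -0.96 ± 0.05 (SD, n = 4), and the cohesin subunit Rad21 by 0.23 (SE 0.24). Of the list of mitotic kinases, checkpoint genes and the anaphase-promoting complex, the 4 genes tested were all subunits of that complex, the ubiquitin ligase of mitotic exit. They split 2 to 2 with a median of -0.05, with Anapc5 at -0.23 (SE 0.18) and Anapc11 at -0.12 (SE 0.16).

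Replication licensing and fork genes were 9 lower and 2 higher of 11 tested, with a median of -0.35. Orc6, of the origin recognition complex, differed by -0.44 (SE 0.19, limma adjusted p = 0.658) and the helicase subunit Mcm7 by -0.41 (SE 0.19, limma adjusted p = 0.666). The 6 Mcm genes tested were all lower, by -0.24 to -0.77. Nucleotide supply genes were 2 lower and 1 higher of 3, with the deoxycytidine kinase Dck at -0.50 (SE 0.35, without WT 2) and the thymidylate kinase Dtymk at -0.24 (SE 0.22). Both S-phase chromatin genes tested were lower, the heterochromatin protein gene Cbx5 by -0.38 (SE 0.26) and the histone acetyltransferase Hat1 by -0.26 (SE 0.19).

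Regulators around the kinases showed no common side. The list of cyclins and kinase partners was 2 lower and 3 higher of 5, with a median of 0.014. Its only cyclin tested, the cyclin G1 gene Ccng1, a p53 target, differed by 0.50 (SE 0.34) and the phosphatase Cdc25b, an activator of Cdk1, by -0.36 (SE 0.29). D-type cyclins Ccnd1 and Ccnd2, the partners of Cdk6, had no ratio on any array, and neither had Ccne1, the partner of Cdk2. The 2 kinase inhibitors tested, both inhibitors of Cdk4 and Cdk6, went opposite ways. Cdkn2c differed by -0.53 (SE 0.22, limma adjusted p = 0.655) and Cdkn2d by 0.55 (SE 0.23, limma adjusted p = 0.655).

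E2F, retinoblastoma and Myb family genes were 3 lower and 2 higher of 5, with a median of -0.02. Myb, a transcription factor of progenitor cells, differed by -0.92 (SE 0.40, limma adjusted p = 0.658, without WT 2), and its WT ratios of -0.33, 1.24 and -0.60 show that WT 3 carried the WT mean. Rb1, the retinoblastoma gene and substrate of Cdk6, differed by 0.20 (SE 0.19, without WT 2).

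**Figure D5:**
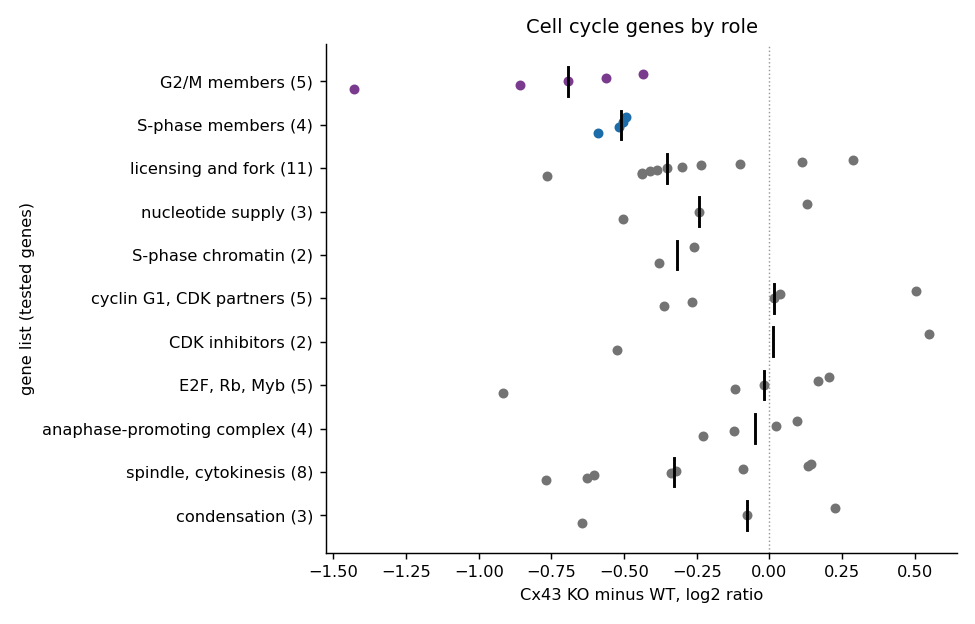
Cx43 KO minus WT difference on the log2 scale (x axis) of each tested gene of the G2/M and S-phase members described here and of 9 lists of other cell cycle genes, the number tested in brackets and the median as a black line. Licensing, spindle and member genes lie mostly below 0, while the lists of cyclin G1 and kinase partners, of kinase inhibitors and of E2F genes lie on both sides of it; 0 of these genes passed limma's test over all genes.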

How the data were processed

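Each deposited value was a log ratio of channel 2 to channel 1 with a sign, read as log2. The log base, dyes, scanner, background correction and normalization were not given in the sources used here. Another base would rescale all differences and leave signs and p-values. Exact 0 (42.4% to 63.4% of features) was read as no ratio. Features were named from the platform annotation: 7307 had 1 symbol, 318 several and 1943 none, and genes were named from the first kind only. Arrays were centred on their median (0.09 to 0.32 before), features of a gene were averaged within an array, and the 3505 genes and unnamed features with at least 3 values per genotype were tested with limma 3.58.1 (R 4.3.3; lmFit and eBayes, two-sided, Benjamini-Hochberg, threshold 0.05), without a block. The script was tested on simulated data. Groups came from titles.

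The 10 genes and all lists were chosen with earlier results of these data known. Named genes were the 10 and, per cell cycle list, the 2 tested genes of smallest p. The 3 most like a profile by Pearson's r were also named. Genes with no ratio, the Mcm genes, the cell type markers and genes without overlap were named after their values were seen. The lot batch in the labels pairs same-numbered arrays; their deviations from the genotype means correlated at r = -0.18, 0.19, -0.13 and -0.19 over 2596 genes and features for numbers 1 to 4. Array number limits precision, since no counts or intensities were used. A planned comparison of kinase proteins was not made.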

Additional observations from a re-analysis of the deposited data

How the results depend on the processing

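The 10 genes were refitted in up to 21 alternatives, which gave 189 differences. All 189 kept their direction and 0 passed the threshold, with limma adjusted p from 0.104 (Fen1, without lot batch 4) to 0.995. Not all of the 189 were free to differ from the main fit. Other limits on the number of values could not alter a difference. The lot batch block left that of the 7 genes with 8 values unchanged, and taking a single feature per gene altered only Foxm1. Leaving out 1 Cx43 KO array other than number 2, or lot batch 1, 3 or 4, left Racgap1, Tk1 and Uhrf1 too few values. Over all genes tested, leaving out 1 array or lot batch gave 0 to 4 calls, 4 without Cx43 KO 4 and 1 without WT 2, of which 0 were among the 10 genes. At an unadjusted p of 0.05 there were 263 genes and features, against 102 to 427 with 1 array or lot batch left out and 471 with array weights. Among the 10 genes this count was 6, all lower. It was 2 of the 7 tested without lot batch 1 or lot batch 3, and 3 without WT 1 or lot batch 2. It was 7 of 10 without WT 4, 6 of 7 without Cx43 KO 4, 7 of 7 without lot batch 4 and 9 with array weights. The counts without Cx43 KO 4, without lot batch 4 and with array weights include Cdk6, which was higher. When lot batch entered as a replicate block, 0 of 3505 passed, with 196 at an unadjusted p of 0.05 and 5 of them among the 10 genes, and the block changed no call. Keeping exact 0 as a ratio brought Pbk to -0.72 and Cdk6 to 0.15, because their features with no ratio then entered the average, as 0 before centring. The S-phase mean ranged from -0.72 to -0.43 over the alternatives and the G2/M mean from -0.96 to -0.58. The gap between them shifted by 0.032 with exact 0 kept as a ratio and by up to 0.41 without lot batch 3. The shift of Cdk6 minus Cdk1 ranged from 0.47 without lot batch 1 to 1.66 without lot batch 4. The alternative with all S-phase and G2/M genes on 7 arrays was chosen after seeing the data.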
